A study of Mus musculus with 24 samples.

Results

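Transcripts of 28 genes of sterol synthesis and of the SREBP2 pathway were followed in macrophages grown from mouse bone marrow (BMDM), of 3 genotypes, untreated and after lipopolysaccharide (LPS), the bacterial ligand of the receptor TLR4. The genes were listed by name for their place in the pathway: 20 enzymes (Acat2, Hmgcs1, Mvk, Pmvk, Mvd, Idi1, Fdps, Ggps1, Fdft1, Sqle, Lss, Cyp51, Tm7sf2, Lbr, Msmo1, Nsdhl, Hsd17b7, Ebp, Sc5d and Dhcr7), 4 genes of the SREBP2 control machinery (Srebf2, Scap, Insig1 and Insig2) and 4 of sterol transport and storage (Stard4, Npc1, Npc2 and Soat1). All 28 were found among the 56941 genes of the deposited count table, and all 28 were among the 14757 genes that passed the filter on low counts.

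The genotypes were wild type (WT), a line that lacks Hdac9 (KO), the gene of a histone deacetylase of class IIa, and a deletion labelled deltaCIS (dCIS) of a cis-regulatory element that the series title ties to Hdac9. Cells of each genotype were left untreated or received 100 ng/ml LPS for 6 hours. The 6 groups had 4 libraries each, 24 together, made from poly(A) RNA. All groups shared a differentiation in L929-conditioned medium, 24 hours without it from day 7, and a medium without serum during the stimulation. The labels name no separate animals or cultures behind the libraries of a group, so every p-value speaks of the spread among these libraries alone, and that spread may be technical. In bulk RNA, fewer cells of a type and less RNA per cell cannot be told apart.

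Total counts per library lay between 14636058 and 19181707, and the 28 genes together took 0.401% to 0.505% of the counts untreated and 0.218% to 0.324% after LPS. In the dCIS group after LPS, library 3 had 17628 genes with a count and library 4 had 15997, against at least 20458 in the other 22 libraries, so results of that group are also given without them. Hdac9 stood between 9.15 and 12.4 CPM in untreated WT, between 0.841 and 1.31 CPM in untreated KO and between 13.0 and 17.9 CPM in untreated dCIS. After LPS its range was 10.4 to 16.5 CPM in WT, 0.0898 to 0.464 CPM in KO and 9.89 to 21.2 CPM in dCIS. The 8 macrophage markers looked at (Adgre1, Csf1r, Cd68, Itgam, Lyz2, Mertk, Fcgr1 and Spi1) summed to between 15500 and 26400 CPM. Summed lymphocyte, fibroblast, erythroid, mast cell and adipocyte markers did not exceed 0.732 CPM in any library, dendritic cell markers reached at most 1.25 CPM, and osteoclast markers summed to 3.83 to 8.43 CPM. The 7 neutrophil markers summed to 0.968 to 3.98 CPM untreated and 2.55 to 5.30 CPM after LPS, and the 4 endothelial markers, mostly Vwf, to 24.4 to 52.6 and 13.6 to 28.6 CPM. Their part in the LPS results was not tested. Levels are given as CPM, counts relative to the library size after scaling by the trimmed mean of M values (TMM), a method that sets most genes between libraries to no change.

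Sterols are built from acetyl-CoA. The mevalonate pathway makes the isoprenoid unit, prenyl transferases join these units to farnesyl diphosphate, and squalene made from it is oxidised and folded into lanosterol, which a series of reductions and demethylations turns into cholesterol. Farnesyl diphosphate also feeds geranylgeranyl diphosphate, with which small GTPases are anchored to membranes, and dolichol and ubiquinone. Srebf2 encodes SREBP2, a transcription factor held in the endoplasmic reticulum by SCAP and the INSIG proteins while sterols are plentiful. When sterols fall, SCAP carries it to the Golgi, where proteases release the part that enters the nucleus and raises transcription of the enzymes, usually with the partner factor NF-Y at the same promoters.

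Promoter sequences show what the members share beyond the pathway that listed them. RefSeq promoter windows of the GRCm38.p6 build, 250 bases before to 50 after the annotated start, were at hand for 23 of the 28 genes. The NF-Y box CCAAT, searched on both strands (ATTGG on the other), was present in 21 of the 23 (91.3%), against 41.06% of the 27025 genes with a window of the same length. In the 250 bases before the start alone it was again present in 21 of the 23, against 37.49% of all genes. All members passed the filter on low counts, while the 27025 genes were not limited to genes that did. The share among expressed genes was not counted. Acat2 and Scap were the members with a window and no box. The SREBP core TCACNCCAC, searched on both strands, was found in 1 of the 23, Hmgcs1, where it does not overlap a box, and in 1.436% of all genes. A match describes the letters in the window and is no measure of binding, and where no core was found, these letters are simply not in that window.

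Stretches before the start are shown for 7 genes, each ending at the base before the annotated start and written in the direction of the gene, with the NF-Y boxes and the SREBP core in capitals. Hmgcs1 is shown because it alone holds the core. Mvk has the most boxes of the 23, and Mvd and Lss are further enzymes whose transcript fell after LPS. Idi1 and Insig1 were not called after LPS in WT, and Ggps1 is the gene that differed between KO and WT under both treatments.
Hmgcs1, chr13:119690104-119690350, plus strand: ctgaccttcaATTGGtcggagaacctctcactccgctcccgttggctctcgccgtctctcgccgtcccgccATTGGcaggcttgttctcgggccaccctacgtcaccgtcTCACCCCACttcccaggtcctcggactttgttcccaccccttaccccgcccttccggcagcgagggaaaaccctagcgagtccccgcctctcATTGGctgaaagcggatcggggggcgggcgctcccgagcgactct
Idi1, chr13:8885456-8885605, plus strand: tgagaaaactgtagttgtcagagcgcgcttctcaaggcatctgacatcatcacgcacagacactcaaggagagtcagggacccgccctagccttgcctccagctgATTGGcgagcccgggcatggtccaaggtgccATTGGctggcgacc
Mvk, chr5:114444086-114444268, plus strand: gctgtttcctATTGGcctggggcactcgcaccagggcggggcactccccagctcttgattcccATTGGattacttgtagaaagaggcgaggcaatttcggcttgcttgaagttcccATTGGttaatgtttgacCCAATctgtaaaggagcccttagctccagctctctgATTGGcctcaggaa
Mvd, chr8:122443423-122443572, minus strand: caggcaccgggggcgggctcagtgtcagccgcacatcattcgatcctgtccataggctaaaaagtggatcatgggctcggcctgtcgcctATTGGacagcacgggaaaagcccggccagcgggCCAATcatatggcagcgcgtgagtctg
Lss, chr10:76531455-76531604, plus strand: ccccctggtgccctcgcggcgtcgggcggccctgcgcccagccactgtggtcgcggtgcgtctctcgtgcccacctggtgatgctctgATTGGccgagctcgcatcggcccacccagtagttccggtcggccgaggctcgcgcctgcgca
Insig1, chr5:28071186-28071411, plus strand: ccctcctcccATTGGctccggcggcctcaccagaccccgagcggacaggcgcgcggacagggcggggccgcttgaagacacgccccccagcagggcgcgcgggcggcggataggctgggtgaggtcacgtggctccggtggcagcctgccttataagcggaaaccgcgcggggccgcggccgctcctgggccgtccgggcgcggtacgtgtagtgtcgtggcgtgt
Ggps1, chr13:14063489-14063699, minus strand: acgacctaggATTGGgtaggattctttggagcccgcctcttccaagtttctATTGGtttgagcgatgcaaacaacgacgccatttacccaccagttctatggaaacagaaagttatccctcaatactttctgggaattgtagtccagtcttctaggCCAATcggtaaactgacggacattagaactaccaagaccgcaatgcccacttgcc
Hmgcs1 has 3 boxes before the start, with the core between the second and the last of them, and 1 more box after the start. Mvk carries 5 boxes within this stretch, of which only 1 reads CCAAT on the strand of the gene. Boxes were present in genes that rose (Ggps1, Npc2), that fell (Mvd, Lss) and that were not called (Idi1, Insig1) after LPS in WT, and these letters alone did not separate them.

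**Figure D1:**
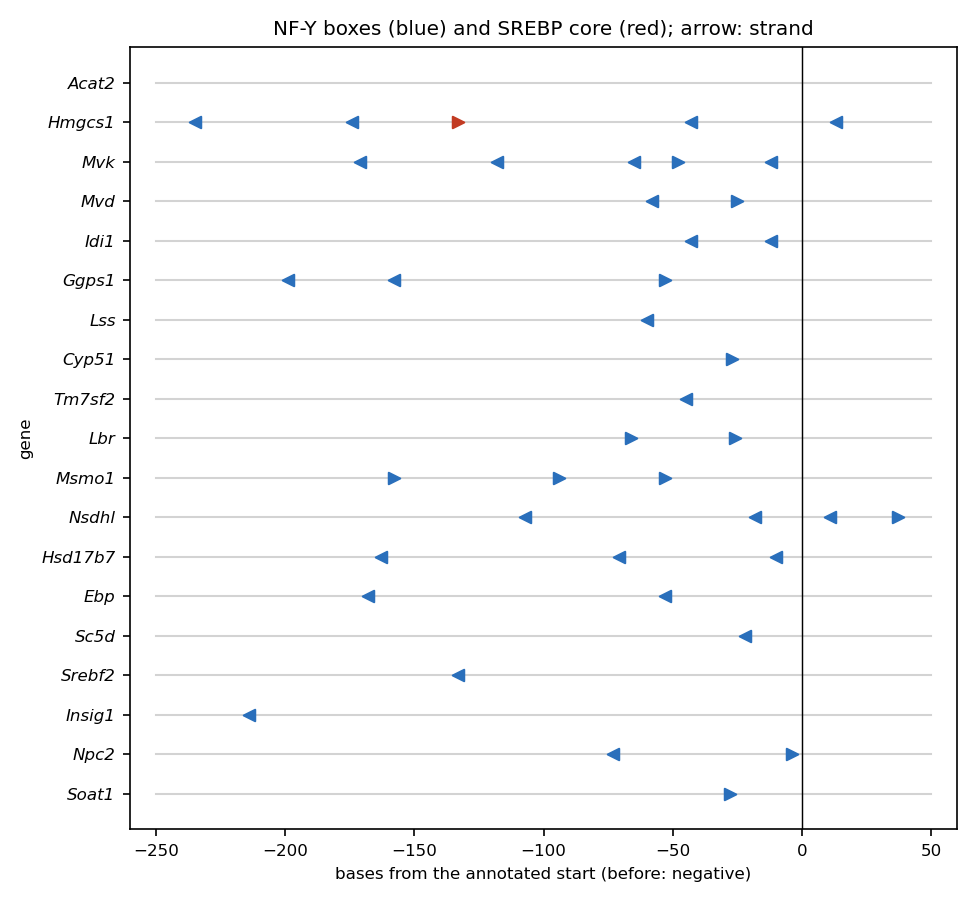
Position of each NF-Y box (blue) and of the SREBP core (red) in bases from the annotated start, for the members with a single RefSeq window; arrows to the right mark matches on the strand of the gene and arrows to the left those on the other strand. Most boxes lie in the 100 bases before the start, Acat2 has none, and the only core is in Hmgcs1.

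After LPS more members fell than rose in each genotype. In WT, 15 of the 28 genes were called lower and 2 higher (edgeR, adjusted p under 0.05), against 31.0% of all tested genes called lower and 30.4% called higher. The median log2 fold change of the 28 was -0.48, against 0.003 for all tested genes. In KO 14 were called lower and 3 higher, where 30.7% and 30.9% of all genes were, with a median of -0.35 against 0.019. In dCIS 16 were called lower and 3 higher, where 33.3% and 31.3% of all genes were, with a median of -0.48 against -0.051. Leaving out any single library left the WT count at 17 genes. Without dCIS LPS libraries 3 and 4 together, a choice made after seeing the data, the dCIS count was 18, 13 lower and 5 higher. The share of all genes called in these refits is not given here, so their counts are not read as a result about the members.

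These directions are relative to the bulk of genes. TMM factors were 1.287 to 1.364 in untreated libraries and 0.694 to 0.826 after LPS, and taking the library totals as they are, an alternative chosen after seeing the data, moved the median of all genes by -0.80 in WT, -0.80 in KO and -0.81 in dCIS. On that scale 27 of the 28 genes were called in WT, 26 lower and 1 higher, where 64.5% of all genes were called lower and 14.0% higher. In KO and in dCIS it was 25, all lower, where 64.3% and 64.0% of all genes were called lower. The members called higher by less than this shift, which are Ggps1, Hmgcs1 (in KO) and Srebf2 (in dCIS), have a negative fold change on library totals, and Npc2 keeps a positive one.

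**Figure D2:**
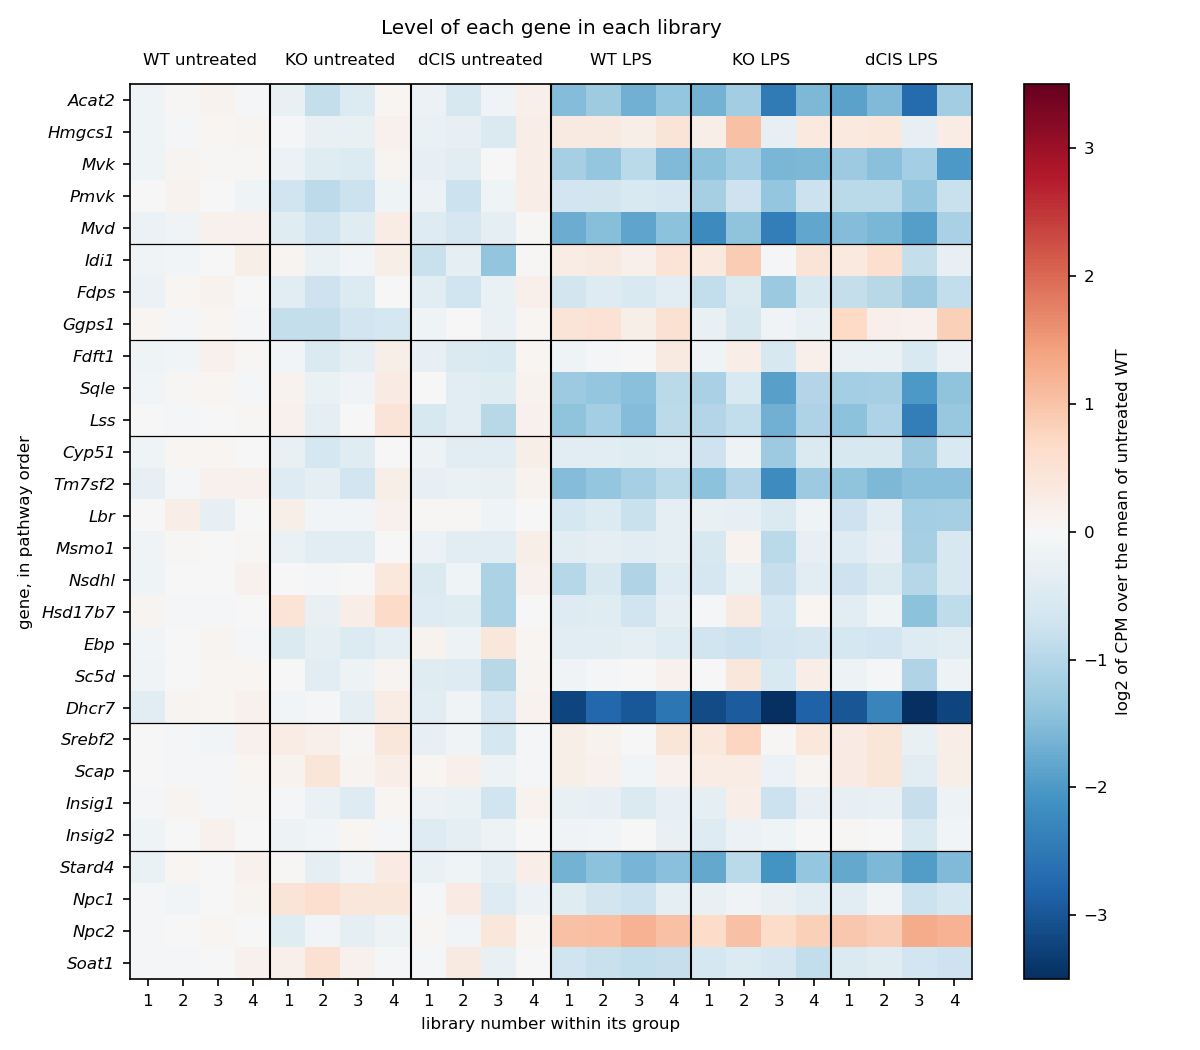
Colour gives the log2 ratio of each library's CPM to the mean of untreated WT, for 28 genes (rows, in pathway order with lines between the roles) and 24 libraries (columns, by group); values beyond the ends of the colour bar take its end colour. Dhcr7, Stard4, Mvd and Acat2 are blue in all 12 LPS libraries, Npc2 is red in all 12, and Ggps1 is blue in the 4 untreated KO libraries.

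**Figure D3:**
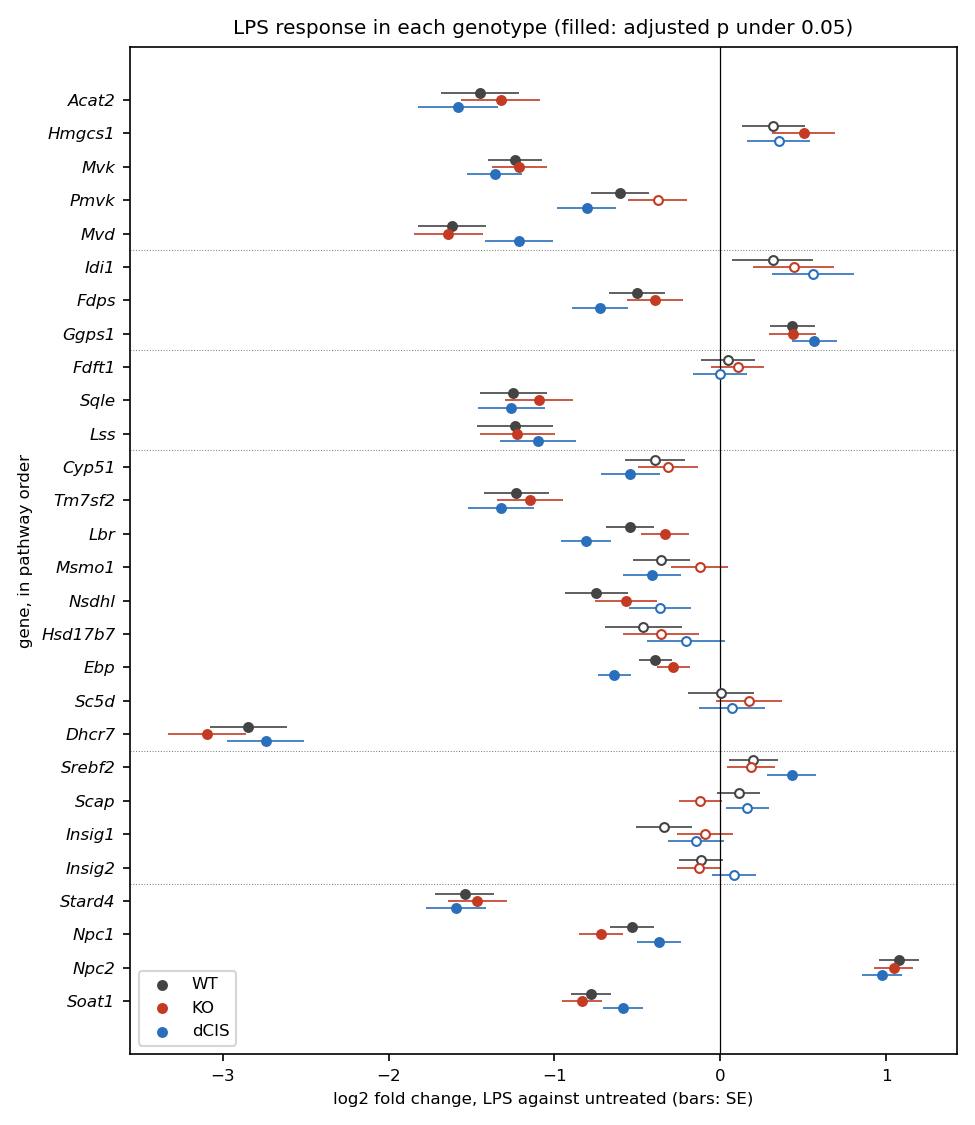
Points give the log2 fold change of each gene, LPS against untreated, with its SE as a bar, in WT (grey), KO (red) and dCIS (blue); filled points passed an adjusted p of 0.05. Dhcr7 lies lowest in all 3 genotypes, between -3.10 and -2.74, and Npc2 highest, between 0.98 and 1.08.

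Of the 5 genes from acetyl-CoA to isopentenyl diphosphate, 4 fell in WT and 1 was not called, where 31.0% of all genes were called lower. Acat2, the cytosolic thiolase that joins 2 acetyl-CoA, opens the pathway. Acat2 stood at 25.96, 29.4, 31.02 and 27.9 CPM in untreated WT libraries 1 to 4 and at 9.89, 11.96, 8.94 and 11.2 CPM after LPS. For KO, Acat2 values were 24.1, 16.04, 20.4 and 30.2 CPM untreated and 9.09, 12.4, 5.18 and 9.57 CPM after LPS. For dCIS, Acat2 values were 24.6, 19.5, 26.5 and 32.1 CPM untreated and 7.87, 9.87, 4.39 and 12.3 CPM after LPS. All 12 LPS libraries lay below all 12 untreated ones. For Acat2 the log2 fold change was -1.45 (SE 0.24, adjusted p = 6.69e-06) in WT, -1.32 (SE 0.24, adjusted p = 2.88e-05) in KO and -1.58 (SE 0.24, adjusted p = 2.30e-06) in dCIS. A pseudogene overlaps Acat2 and a close copy, Acat3, lies beside it, so reads may be shared between them and the value is uncertain to that extent.

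Mvd, the decarboxylase that yields isopentenyl diphosphate, fell most of the 5 in WT and KO. Mvd stood at 58.4, 62.97, 74.9 and 75.6 CPM in untreated WT libraries 1 to 4 and at 20.6, 24.2, 18.9 and 24.9 CPM after LPS. For KO, Mvd values were 50.7, 41.9, 50.5 and 81.7 CPM untreated and 14.5, 25.4, 12.8 and 19.5 CPM after LPS. For dCIS, Mvd values were 50.02, 44.9, 54.4 and 70.5 CPM untreated and 23.8, 22.3, 17.9 and 31.1 CPM after LPS. Every LPS library was below every untreated one, and untreated KO library 4 was the highest of its group and above the 4 untreated WT libraries. For Mvd the log2 fold change was -1.62 (SE 0.21, adjusted p = 1.45e-07) in WT, -1.64 (SE 0.21, adjusted p = 1.46e-07) in KO and -1.21 (SE 0.20, adjusted p = 1.06e-05) in dCIS. Mvk, mevalonate kinase, fell to 0.424 of its untreated level in WT. Mvk stood at 31.4, 37.4, 35.97 and 35.9 CPM in untreated WT libraries 1 to 4 and at 15.8, 13.7, 18.1 and 12.05 CPM after LPS. For KO, Mvk values were 30.6, 26.2, 25.2 and 37.7 CPM untreated and 13.1, 15.4, 11.5 and 11.7 CPM after LPS. For dCIS, Mvk values were 28.9, 26.99, 34.7 and 41.02 CPM untreated and 14.4, 12.7, 15.3 and 8.75 CPM after LPS. No LPS library reached an untreated one. For Mvk the log2 fold change was -1.24 (SE 0.16, adjusted p = 3.00e-07) in WT, -1.21 (SE 0.17, adjusted p = 5.36e-07) in KO and -1.36 (SE 0.17, adjusted p = 7.27e-08) in dCIS.

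Pmvk, the kinase that follows Mvk, fell by less. It averaged 39.7 ± 2.97 CPM (SD, n = 4) in untreated WT and 26.1 ± 1.13 CPM after LPS, a log2 change of -0.60 (SE 0.17, adjusted p = 0.00403), against -0.80 (SE 0.18, adjusted p = 2.92e-04) in dCIS. In KO its groups overlapped and the value was -0.38 (SE 0.18, adjusted p = 0.0697), which passed with the replicate number as a block (-0.37, adjusted p = 0.027) and without KO LPS library 2 (adjusted p = 0.0402), KO LPS library 4 (0.0441) or untreated KO library 2 (0.0298). Pmvk in KO also passed with DESeq2 (adjusted p = 0.0285), RLE size factors (0.0318), only the groups compared (0.044) and no filter on low counts (0.000707). Hmgcs1, the synthase that makes HMG-CoA from acetoacetyl-CoA, stood apart from the other 4. Hmgcs1 stood at 228, 246, 263 and 271 CPM in untreated WT libraries 1 to 4 and at 310.4, 312, 293 and 343 CPM after LPS. For KO, Hmgcs1 values were 240.2, 209, 211 and 277 CPM untreated and 291, 516, 206 and 317 CPM after LPS. For dCIS, Hmgcs1 values were 216, 208, 178 and 298 CPM untreated and 317, 326, 206 and 302 CPM after LPS. In WT every LPS library lay above every untreated one, while KO LPS library 3 lay below all 4 untreated KO libraries and dCIS LPS library 3 fell among the untreated dCIS values. The log2 fold change was 0.32 (SE 0.19, adjusted p = 0.149) in WT, 0.50 (SE 0.19, adjusted p = 0.0243) in KO and 0.35 (SE 0.19, adjusted p = 0.106) in dCIS, so the rise was called in KO, and the difference of the response between genotypes was not called. The KO call was lost without KO LPS library 2 (0.21, adjusted p = 0.287) and without untreated KO library 2 (0.45, adjusted p = 0.0667) or 3 (0.45, adjusted p = 0.0661), and with only the groups compared in the fit (0.42, adjusted p = 0.113). In dCIS Hmgcs1 passed with the replicate block (0.36, adjusted p = 0.0383) and without dCIS LPS library 3 (0.48, adjusted p = 0.0324) or untreated dCIS library 4 (0.51, adjusted p = 0.0267). In WT the rise passed with only the groups compared (0.29, adjusted p = 0.00455). On library totals its KO value was -0.33, not called, and Hmgcs1 was called lower in WT (-0.49, adjusted p = 0.0155) and in dCIS (-0.42, adjusted p = 0.0353).

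Of the 3 genes of the isoprenoid chain, 1 fell, 1 rose and 1 was not called in WT. These counts are close to the shares of all genes, 31.0% called lower and 30.4% called higher. Idi1 encodes the isomerase that sets isopentenyl and dimethylallyl diphosphate in balance. Untreated and LPS means of WT were 23.1 ± 2.37 and 28.8 ± 2.53 CPM (SD, n = 4). KO means were 23.2 ± 3.21 and 31.5 ± 8.44 CPM, while dCIS means were 16.1 ± 6.34 and 23.9 ± 9.84 CPM. The fold changes of 0.32, 0.44 and 0.56 did not pass, with adjusted p-values of 0.272, 0.118 and 0.0504. With the replicate block, Idi1 passed in KO (0.42, adjusted p = 0.0406) and in dCIS (0.56, adjusted p = 0.0105). In WT it passed with only the groups compared (0.28, adjusted p = 0.0178). In dCIS it passed without the filter on low counts (0.41, adjusted p = 0.0148) and with a filter of 1 CPM in 4 libraries (0.57, adjusted p = 0.0454). In dCIS it also passed without untreated library 2 or 4 or LPS library 3 or 4, with log2 fold changes of 0.63, 0.80, 0.77 and 0.66, and reached 0.98 (adjusted p = 0.00135) without LPS libraries 3 and 4 together.

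Fdps, farnesyl diphosphate synthase, fell. Its group means in WT were 169 ± 15.4 CPM untreated and 119.8 ± 8.23 CPM after LPS, and the log2 fold changes were -0.50 (adjusted p = 0.0123) in WT, -0.39 (adjusted p = 0.0474) in KO and -0.73 (adjusted p = 5.66e-04) in dCIS. Its KO groups overlapped, and the KO call was lost without KO LPS library 1 or 3 or untreated KO library 1 or 4, at adjusted p-values of 0.103, 0.2, 0.0734 and 0.22. Ggps1, which makes geranylgeranyl diphosphate, was the enzyme called higher in all 3 genotypes. Ggps1 stood at 14.5, 13.2, 14.4 and 13.2 CPM in untreated WT libraries 1 to 4 and at 19.05, 19.8, 16.1 and 19.9 CPM after LPS. For KO, Ggps1 values were 7.75, 7.80, 8.71 and 9.01 CPM untreated and 11.5, 9.43, 12.6 and 11.5 CPM after LPS. For dCIS, Ggps1 values were 12.5, 13.96, 11.7 and 14.4 CPM untreated and 22.3, 15.6, 15.4 and 24.7 CPM after LPS. Within each genotype every LPS library was above every untreated one, and the KO libraries ran lower than the others at both treatments. For Ggps1 the log2 fold change was 0.44 (SE 0.14, adjusted p = 0.00703) in WT, 0.44 (SE 0.14, adjusted p = 0.00934) in KO and 0.57 (SE 0.14, adjusted p = 7.05e-04) in dCIS. The direction holds relative to the bulk of genes only: on library totals the values were -0.37, -0.38 and -0.19. The WT and KO calls also needed the filter on low counts (0.27, adjusted p = 0.247, and 0.29, adjusted p = 0.233, without it).

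From squalene to lanosterol, 2 of 3 genes fell, where 31.0% of all genes in WT, 30.7% in KO and 33.3% in dCIS were called lower. Sqle, squalene epoxidase, is the oxygen-using step in front of ring closure. Sqle stood at 145, 160.3, 161 and 151 CPM in untreated WT libraries 1 to 4 and at 64.4, 60.5, 55.9 and 79.6 CPM after LPS. For KO, Sqle values were 167, 131, 142 and 189.8 CPM untreated and 70.6, 108, 41.2 and 75.8 CPM after LPS. For dCIS, Sqle values were 153, 120.3, 116 and 167 CPM untreated and 67.95, 68.4, 38.01 and 58.1 CPM after LPS. All LPS libraries lay below all untreated ones, with KO LPS library 2 nearest to the untreated range. For Sqle the log2 fold change was -1.25 (SE 0.20, adjusted p = 6.93e-06) in WT, -1.09 (SE 0.20, adjusted p = 3.92e-05) in KO and -1.26 (SE 0.20, adjusted p = 6.14e-06) in dCIS. Lss folds the epoxide into lanosterol. Lss stood at 85.5, 80.9, 85.9 and 86.5 CPM in untreated WT libraries 1 to 4 and at 31.8, 37.4, 29.4 and 44.9 CPM after LPS. For KO, Lss values were 93.7, 67.5, 83.6 and 116 CPM untreated and 41.3, 46.98, 26.5 and 39.7 CPM after LPS. For dCIS, Lss values were 57.7, 64.8, 43.2 and 94.1 CPM untreated and 31.5, 40.4, 15.96 and 33.8 CPM after LPS. Within each genotype the groups did not overlap. For Lss the log2 fold change was -1.24 (SE 0.23, adjusted p = 3.69e-05) in WT, -1.22 (SE 0.23, adjusted p = 4.33e-05) in KO and -1.10 (SE 0.23, adjusted p = 1.66e-04) in dCIS. Another transcript overlaps Lss, and the strand setting of the authors' counting is not given in the sources used here. Fdft1, squalene synthase, gave 91.5 ± 8.47 and 94.6 ± 14.1 CPM in WT untreated and after LPS, with a 95% interval of the log2 fold change of -0.28 to 0.38. Its intervals were -0.23 to 0.44 in KO and -0.33 to 0.33 in dCIS. Fdft1 overlaps Ctsb, an abundant macrophage protease gene, so its counts may include reads of that gene.

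Of the 9 genes from lanosterol to cholesterol, 5 were called lower in WT, 5 in KO and 6 in dCIS, and none higher. The shares of all genes called lower were 31.0%, 30.7% and 33.3%, and those called higher 30.4%, 30.9% and 31.3%. Dhcr7, 7-dehydrocholesterol reductase, carries out the final reduction to cholesterol. Dhcr7 stood at 43.6, 60.4, 58.7 and 62.8 CPM in untreated WT libraries 1 to 4 and at 6.05, 8.39, 7.21 and 9.70 CPM after LPS. For KO, Dhcr7 values were 53.3, 54.5, 44.1 and 67.8 CPM untreated and 6.49, 7.55, 3.68 and 7.97 CPM after LPS. For dCIS, Dhcr7 values were 43.2, 51.8, 37.8 and 61.3 CPM untreated and 7.14, 11.4, 4.47 and 6.13 CPM after LPS. The untreated libraries went no lower than 37.8 CPM and the LPS libraries no higher than 11.4 CPM. For Dhcr7 the log2 fold change was -2.85 (SE 0.23, adjusted p = 3.25e-11) in WT, -3.10 (SE 0.24, adjusted p = 1.01e-11) in KO and -2.74 (SE 0.23, adjusted p = 7.63e-11) in dCIS. In WT the level after LPS was 0.139 of the untreated level, and no other member fell by as much in any genotype.

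Tm7sf2 and Lbr both encode proteins with sterol reductase activity for the same double bond, Lbr also being the lamin B receptor of the inner nuclear membrane. Tm7sf2 stood at 11.1, 12.9, 14.8 and 14.9 CPM in untreated WT libraries 1 to 4 and at 4.66, 5.20, 6.04 and 6.95 CPM after LPS. For KO, Tm7sf2 values were 9.73, 10.8, 8.46 and 15.4 CPM untreated and 4.92, 6.65, 2.93 and 5.58 CPM after LPS. For dCIS, Tm7sf2 values were 10.9, 11.5, 11.3 and 14.5 CPM untreated and 5.03, 4.52, 4.91 and 4.82 CPM after LPS. All LPS libraries were below all untreated ones. For Tm7sf2 the log2 fold change was -1.23 (SE 0.20, adjusted p = 5.13e-06) in WT, -1.15 (SE 0.20, adjusted p = 1.88e-05) in KO and -1.32 (SE 0.20, adjusted p = 2.28e-06) in dCIS. Tm7sf2 overlaps Vps51, with the same limit on counting. Lbr fell by less, at -0.54 (adjusted p = 0.0022) in WT, -0.33 (adjusted p = 0.0486) in KO and -0.81 (adjusted p = 3.27e-05) in dCIS. The KO call of Lbr was lost without KO LPS library 1, 2 or 3 or untreated KO library 1 or 4, where the adjusted p was 0.0696, 0.076, 0.141, 0.127 and 0.114.

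Ebp, the isomerase that shifts the ring double bond, fell in all 3 genotypes, with log2 fold changes of -0.39 (adjusted p = 0.00139) in WT, -0.28 (adjusted p = 0.0179) in KO and -0.64 (adjusted p = 3.96e-06) in dCIS. Nsdhl, a dehydrogenase of the methyl-removing complex, averaged 39.6 ± 3.39 CPM in untreated WT and 23.6 ± 4.88 CPM after LPS. It fell in WT (-0.75, adjusted p = 0.00124) and KO (-0.57, adjusted p = 0.0105). In dCIS the value of -0.36 (adjusted p = 0.0939) passed with the replicate block (-0.31, adjusted p = 0.0266) and without untreated dCIS library 3 (-0.65, adjusted p = 0.000908). Nsdhl in dCIS also passed without the filter on low counts (-0.51, adjusted p = 0.000791). Untreated dCIS library 3 was the lowest of its group at 18.4 CPM, against 27.8 to 43.9 CPM in the others.

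Cyp51, lanosterol demethylase, and Msmo1, the sterol methyl oxidase, ran just on either side of the threshold. Cyp51 averaged 202 ± 14.1 and 154 ± 3.44 CPM in WT untreated and after LPS, with no overlap. Its fold change was -0.39 (adjusted p = 0.0612) in WT, -0.32 (adjusted p = 0.132) in KO and -0.54 (adjusted p = 0.0107) in dCIS. With the replicate block Cyp51 passed in WT (-0.39, adjusted p = 0.0223) and in KO (-0.35, adjusted p = 0.0413), and in KO also without KO LPS library 2 (-0.51, adjusted p = 0.0182). In WT it also passed with RLE size factors (adjusted p = 0.0405), DESeq2 (0.0376) and only the groups compared (8.99e-05). Without the filter on low counts it passed in WT (adjusted p = 2.09e-05) and in KO (0.000477). The dCIS call was lost without dCIS LPS library 3 (-0.40, adjusted p = 0.0544), without untreated dCIS library 4 (-0.40, adjusted p = 0.0649) and without LPS libraries 3 and 4 together (-0.41, adjusted p = 0.0965).

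Msmo1 had WT means of 220.2 ± 12.97 and 172 ± 3.97 CPM, again with no overlap, and fold changes of -0.36 (adjusted p = 0.0781) in WT, -0.12 (adjusted p = 0.557) in KO and -0.41 (adjusted p = 0.0401) in dCIS. With the block it passed in WT (-0.35, adjusted p = 0.0295). Msmo1 also passed in WT with DESeq2 (adjusted p = 0.049), only the groups compared (0.000159) and no filter on low counts (8.04e-05). Its dCIS call was lost without LPS library 3 or 4 or untreated library 1 or 4, with adjusted p-values of 0.175, 0.0616, 0.0557 and 0.189, without both LPS libraries 3 and 4 (-0.21, adjusted p = 0.373), and with only the groups compared (-0.40, adjusted p = 0.0779). Hsd17b7, the ketone reductase of the same complex, was not called, at -0.46, -0.36 and -0.21, though its WT groups did not overlap and it passed there with the block (-0.47, adjusted p = 0.029). Hsd17b7 also passed in WT with only the groups compared (adjusted p = 0.000283). Without the filter it passed in WT (adjusted p = 2.13e-05), KO (0.000725) and dCIS (0.0345). Sc5d, the desaturase that makes the substrate of Dhcr7, gave 95% intervals of -0.40 to 0.41 in WT, -0.23 to 0.58 in KO and -0.34 to 0.48 in dCIS. Sc5d and Dhcr7 act one after the other, and their log2 fold changes in WT were 0.0043 and -2.85.

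By edgeR, none of the 4 control genes was called after LPS in WT or KO, and DESeq2 also called 0. Among all genes, 31.0% were called lower and 30.4% higher in WT, and 30.7% and 30.9% in KO. At an unadjusted p under 0.05 by edgeR, 0 of the 4 passed in either, where 9519 and 9539 of the 14757 tested genes did. Scaled to library totals all 4 were called lower in both genotypes, where 64.5% of all genes in WT and 64.3% in KO were. On that scale the 4 lay at -0.61 to -1.15 in log2 in WT and -0.64 to -0.95 in KO. This turns the sign of Srebf2 in both genotypes and of Scap in WT. Srebf2 encodes SREBP2 itself. Srebf2 stood at 196, 192, 187 and 223 CPM in untreated WT libraries 1 to 4 and at 231, 217, 200.1 and 268 CPM after LPS. For KO, Srebf2 values were 239, 225, 204 and 261 CPM untreated and 259, 335, 203 and 259 CPM after LPS. For dCIS, Srebf2 values were 164, 184, 131 and 193 CPM untreated and 241, 268, 165 and 232 CPM after LPS. Library values overlapped between treatments in all 3 genotypes, and library 2 in KO and dCIS was the highest after LPS. The log2 fold change was 0.20 (adjusted p = 0.245) in WT, 0.19 (adjusted p = 0.278) in KO and 0.43 (SE 0.15, adjusted p = 0.012) in dCIS. The dCIS call was lost without dCIS LPS library 2 (0.34, adjusted p = 0.0592), without untreated dCIS library 3 (0.23, adjusted p = 0.159) and without the filter on low counts (0.29, adjusted p = 0.055), and on library totals the value was -0.34. The microRNA gene Mir33 lies within Srebf2.

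Scap, the carrier of SREBP2 to the Golgi, held a narrow range. Scap stood at 28.5, 27.4, 26.7 and 29.6 CPM in untreated WT libraries 1 to 4 and at 32.6, 31.2, 26.5 and 31.05 CPM after LPS. For KO, Scap values were 30.8, 37.3, 30.2 and 32.9 CPM untreated and 33.4, 33.4, 24.4 and 29.7 CPM after LPS. For dCIS, Scap values were 29.4, 31.5, 24.99 and 27.2 CPM untreated and 34.4, 37.98, 21.9 and 32.6 CPM after LPS. The lowest values came from library 3 of dCIS and of KO after LPS. The 95% intervals of its log2 fold change were -0.16 to 0.38 in WT, -0.39 to 0.15 in KO and -0.10 to 0.43 in dCIS. In dCIS Scap passed without LPS library 3 (0.31, adjusted p = 0.0215) and without LPS libraries 3 and 4 (0.35, adjusted p = 0.0187).

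Insig1 is itself an SREBP2 target and holds the SCAP complex back. Insig1 stood at 127, 142, 128 and 138 CPM in untreated WT libraries 1 to 4 and at 111, 109, 94.2 and 109 CPM after LPS. For KO, Insig1 values were 129.8, 114, 98.6 and 142 CPM untreated and 106, 158, 78.8 and 111 CPM after LPS. For dCIS, Insig1 values were 117, 113, 82.8 and 146 CPM untreated and 109, 111, 76.9 and 117 CPM after LPS. In WT every LPS library was below every untreated one, and in KO library 2 after LPS was the highest of all 8. The fold change was -0.34 (adjusted p = 0.0868) in WT, -0.09 (adjusted p = 0.659) in KO and -0.15 (adjusted p = 0.456) in dCIS, and the WT value passed with the replicate block (-0.34, adjusted p = 0.00804). That WT value also passed with only the groups compared (adjusted p = 0.000557) and without the filter on low counts (0.000185). In dCIS Insig1 passed without untreated library 3 (-0.38, adjusted p = 0.0426). Insig2, the second retention protein, is less tied to sterol-dependent transcription. Insig2 stood at 13.1, 14.5, 16.2 and 14.4 CPM in untreated WT libraries 1 to 4 and at 13.4, 13.7, 14.4 and 12.1 CPM after LPS. For KO, Insig2 values were 12.9, 13.7, 15.3 and 13.9 CPM untreated and 10.6, 12.6, 13.1 and 14.7 CPM after LPS. For dCIS, Insig2 values were 10.6, 11.5, 12.9 and 14.7 CPM untreated and 14.8, 14.4, 10.03 and 13.5 CPM after LPS. The groups overlapped in each genotype. Insig2 intervals were -0.38 to 0.15 in WT, -0.40 to 0.14 in KO and -0.19 to 0.35 in dCIS.

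Of the 4 transport and storage genes, 3 fell and 1 rose in each genotype. The shares of all genes called lower were 31.0% in WT, 30.7% in KO and 33.3% in dCIS. Those called higher were 30.4%, 30.9% and 31.3%. Stard4 carries cholesterol through the cytosol and is an SREBP2 target. Stard4 stood at 73.8, 91.1, 87.8 and 96.3 CPM in untreated WT libraries 1 to 4 and at 27.7, 32.5, 28.1 and 31.7 CPM after LPS. For KO, Stard4 values were 90.5, 69.7, 79.98 and 106 CPM untreated and 25.4, 45.7, 20.5 and 34.05 CPM after LPS. For dCIS, Stard4 values were 74.6, 78.3, 68.3 and 102 CPM untreated and 25.4, 29.3, 22.3 and 30.2 CPM after LPS. The LPS libraries all lay below the untreated ones, and KO LPS library 2 was the highest of the 12. For Stard4 the log2 fold change was -1.54 (SE 0.18, adjusted p = 2.87e-08) in WT, -1.46 (SE 0.18, adjusted p = 6.84e-08) in KO and -1.59 (SE 0.18, adjusted p = 1.74e-08) in dCIS. Npc2 binds cholesterol in the lysosome and hands it to Npc1 in the lysosomal membrane. Npc2 stood at 808, 850.1, 897 and 844 CPM in untreated WT libraries 1 to 4 and at 1735, 1752, 1990.1 and 1715 CPM after LPS. For KO, Npc2 values were 632, 789, 674 and 754 CPM untreated and 1321, 1727, 1332 and 1502 CPM after LPS. For dCIS, Npc2 values were 882, 790.1, 1115 and 888 CPM untreated and 1625, 1532, 2097 and 1981 CPM after LPS. No LPS library was as low as any untreated one. For Npc2 the log2 fold change was 1.08 (SE 0.12, adjusted p = 1.47e-08) in WT, 1.05 (SE 0.12, adjusted p = 2.62e-08) in KO and 0.98 (SE 0.12, adjusted p = 8.19e-08) in dCIS. The WT call of Npc2 also holds on library totals, while in KO (0.22, adjusted p = 0.102) and dCIS (0.23, adjusted p = 0.0901) that scale ends the call.

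Npc1 and Npc2, partners in cholesterol export from the lysosome, moved in opposite directions. Npc1 averaged 208 ± 11.4 CPM in untreated WT and 144 ± 18.1 CPM after LPS, with log2 fold changes of -0.53 (adjusted p = 0.0012) in WT, -0.72 (adjusted p = 3.98e-05) in KO and -0.37 (adjusted p = 0.0185) in dCIS. Its dCIS groups overlapped, and that call was lost without LPS library 3 or 4, without untreated library 2 (adjusted p = 0.0823, 0.0637 and 0.13), without LPS libraries 3 and 4 together (-0.16, adjusted p = 0.367) and with only the groups compared (-0.36, adjusted p = 0.0978). Npc1 overlaps Rmc1. Soat1, which esterifies cholesterol for storage in droplets, had WT means of 304 ± 21.4 and 178 ± 8.69 CPM and fell in WT (-0.78, adjusted p = 3.44e-06), KO (-0.83, adjusted p = 1.16e-06) and dCIS (-0.59, adjusted p = 1.37e-04), without overlap.

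**Figure D4:**
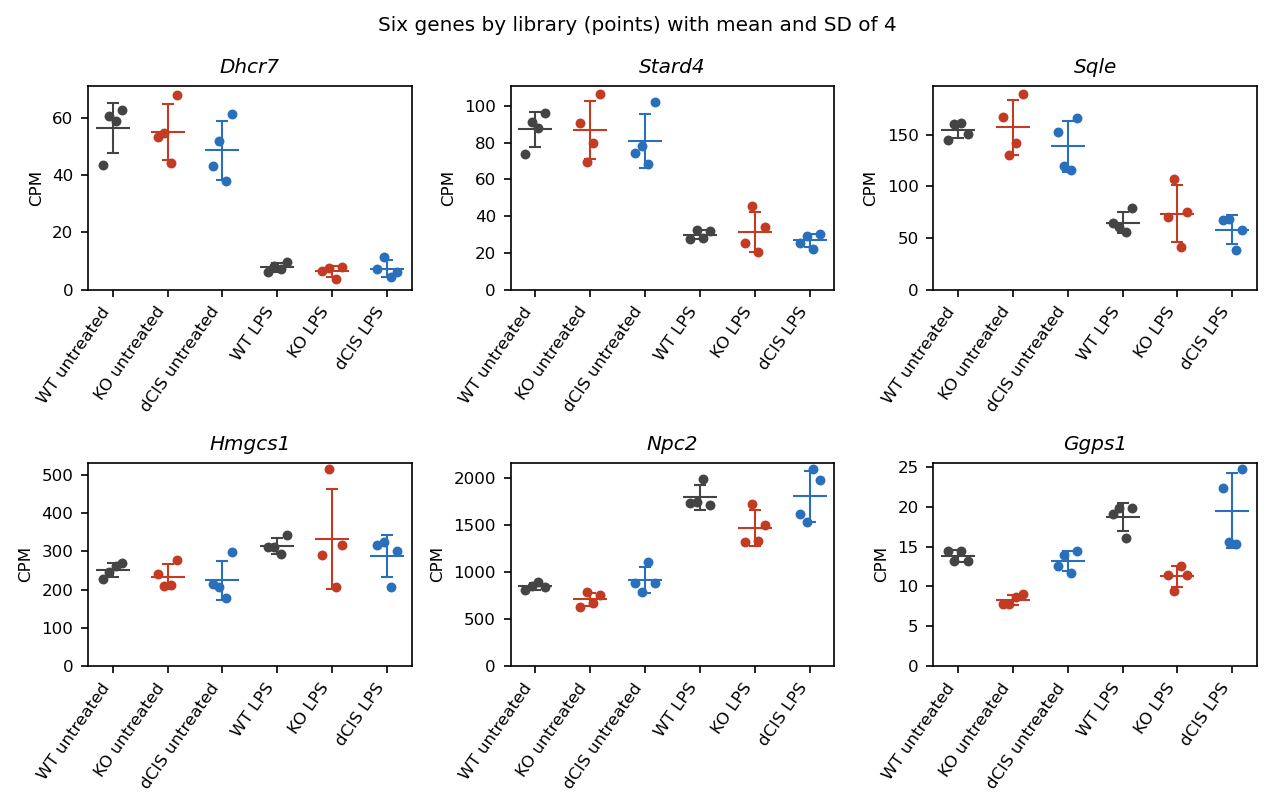
CPM of 6 members in each library (points) with the mean and SD of 4 (bars), by group, in WT (grey), KO (red) and dCIS (blue); each vertical axis starts at 0 and has its own scale. Dhcr7, Stard4 and Sqle are lower in all 3 LPS groups, Npc2 is higher in all 3, and Ggps1 is lower in KO than in WT and dCIS at both treatments.

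Within a group the enzymes tended to be high or low in the same library. Untreated KO library 4 was the highest of its group for 18 of the 20 enzymes, and so was untreated dCIS library 4. After LPS, KO library 2 was the highest for 16 of 20 and KO library 3 the lowest for 18, while dCIS library 3 was the lowest of its group for 17 and WT library 4 the highest for 16. The share of all genes highest or lowest in each library was not counted. Whether this pattern is particular to the enzymes was not tested. The summed level of the 20 enzymes, a sum led by the most abundant of them, was 1733 ± 102 CPM (SD, n = 4) in untreated WT, 1548 ± 260.1 in untreated KO and 1500.1 ± 298 in untreated dCIS. After LPS it was 1325 ± 85.4 CPM in WT, 1299 ± 369 in KO and 1130.4 ± 215 in dCIS. The largest gap was within KO after LPS, from 874 CPM in library 3 to 1761 CPM in library 2, wider than the difference between the untreated and LPS means of any genotype. Srebf2 was also highest in KO LPS library 2, at 335 CPM, and lowest in library 3, at 203 CPM. Total counts of these libraries, 16041874 and 16032304, were close. What sets these libraries apart was not tested.

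**Figure D5:**
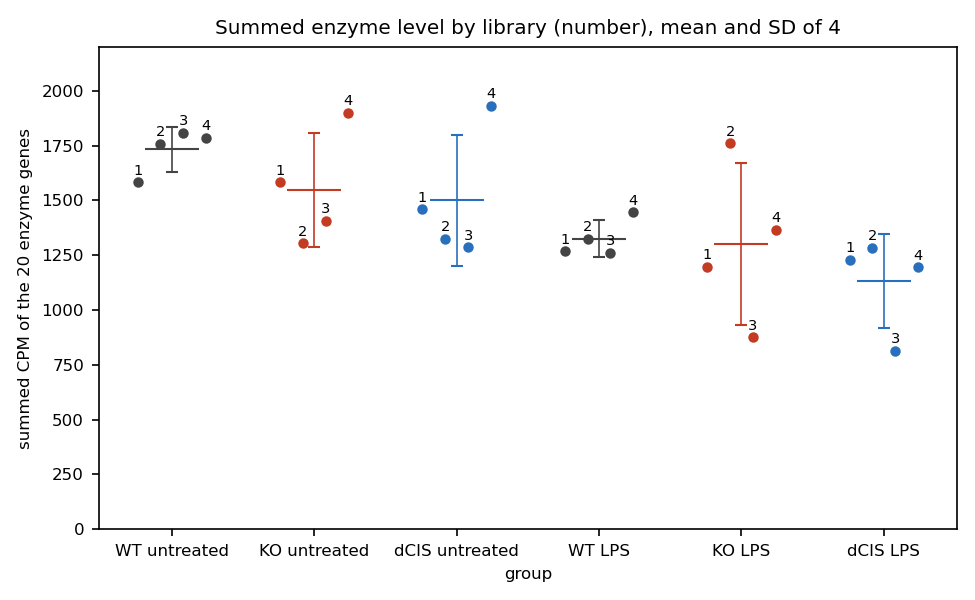
Summed CPM of the 20 enzyme genes in each library (points with the library number), with the mean and SD of 4 for each group. The WT libraries lie close together at each treatment, while KO after LPS spans 874 to 1761 CPM.

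Other genes around the pathway followed several courses after LPS. Of 20 tested genes of SREBP processing and sterol sensing, 9 were called higher and 5 lower in WT (median log2 fold change 0.18), where 30.4% of all genes were called higher and 31.0% lower. Ch25h, which makes an oxysterol that binds INSIG, went from 0.475 ± 0.158 to 148 ± 10.5 CPM in WT, 8.27 (SE 0.24, adjusted p = 4.21e-20) on the log2 scale, and its change was 7.70 in KO and 7.79 in dCIS. Rnf139 (2.01, adjusted p = 3.43e-16), Rnf145 (1.90, adjusted p = 1.06e-11) and Syvn1 (0.82, adjusted p = 9.45e-09), ubiquitin ligases of the endoplasmic reticulum, rose with it. Among the lower genes were Srebf1 (-0.27, adjusted p = 0.0394), the sister gene of Srebf2, and Mbtps1 (-0.36, adjusted p = 0.0133), a protease that cleaves SREBP. The Srebf1 call was lost without WT LPS library 1, 2 or 3 or untreated WT library 2, 3 or 4 (adjusted p from 0.0592 to 0.113), and that of Mbtps1 without WT LPS library 3 (0.0598). On library totals Syvn1 was not called (0.0083, adjusted p = 0.937). Of 10 tested lipogenic targets of SREBP1, 8 were called lower and none higher in WT, KO and dCIS alike, with a WT median of -2.23. Among all genes 30.7% were called lower and 30.9% higher in KO, and 33.3% and 31.3% in dCIS. Scd2, a fatty acid desaturase, had a log2 fold change of -4.26 (adjusted p = 5.38e-13) in WT, the elongase gene Elovl6 one of -3.90 (adjusted p = 2.64e-12), and Acsl3 and Fads1 of -2.85 and -2.48.

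Of the 15 genes of prenylation, dolichol and ubiquinone, which draw on Fdps and Ggps1, 4 were called higher and 6 lower in WT, against the same 30.4% and 31.0% of all genes. Pdss1, which builds the ubiquinone side chain, rose by 1.95 (adjusted p = 4.72e-09), and Pggt1b, the beta subunit of geranylgeranyl transferase, by 0.75 (adjusted p = 1.30e-07), while Dolpp1 (-1.51, adjusted p = 2.54e-10) and Rabggta (-0.93, adjusted p = 9.45e-09) fell. Of 6 tested genes of LXR-driven sterol efflux, 3 were called higher and 2 lower, with Abcg1 at 1.28 (adjusted p = 3.92e-05), Plin2 at 0.56 (adjusted p = 4.82e-04), Abca1 at -1.01 (adjusted p = 0.0028) and Apoe at -2.24 (adjusted p = 7.67e-06). On library totals Pggt1b (-0.06, adjusted p = 0.544) and Plin2 (-0.25, adjusted p = 0.0941) turned sign, and Abcg1 was not called (0.48, adjusted p = 0.0608). In KO, where 30.9% of all genes were called higher and 30.7% lower, the counts were 4 higher and 7 lower for prenylation and 3 and 2 for efflux. In dCIS, where these shares were 31.3% and 33.3%, they were 4 and 9 for prenylation and 3 and 1 for efflux.

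Between KO and WT, 4 of the 28 genes were called untreated, 1 higher and 3 lower, against 7.31% of all genes. After LPS 1 was called, lower, against 2.74% of all genes. Ggps1 was the gene called under both treatments. The 4 untreated KO libraries, at 7.75 to 9.01 CPM, lay below the 4 WT libraries, at 13.2 to 14.5 CPM. After LPS KO ran from 9.43 to 12.6 CPM and WT from 16.1 to 19.9 CPM, again with no overlap. The log2 difference was -0.73 (SE 0.14, adjusted p = 0.00468) untreated and -0.73 (SE 0.14, adjusted p = 0.00564) after LPS, or 0.602 and 0.603 of the WT level, and each call was kept without any single library. Ggps1 lies on chromosome 13. Of the 20 tested genes nearest to it in the RefSeq order, 10 on each side, 5 were called in untreated KO against WT, all higher, and 4 after LPS, all higher. The untreated calls were Edaradd, Gpr137b, Arid4b and Lgals8 and 1 numbered gene model. These neighbours were looked at after the values of Ggps1 were seen.

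The other 3 calls were made untreated only. Pmvk values were 39.4, 43.1, 40.5 and 35.9 CPM in untreated WT and 24.3, 20.98, 23.4 and 36.1 CPM in untreated KO. KO library 4 fell within the WT range and the other 3 below it. The log2 difference was -0.60 (SE 0.17, adjusted p = 0.0364). Leaving out untreated WT library 1, 2 or 3 or untreated KO library 1, 2 or 3 ended the call, with adjusted p-values between 0.0645 and 0.122. After LPS the Pmvk values were 25.1, 25.4, 27.6 and 26.4 CPM in WT and 17.7, 23.9, 15.5 and 23.5 CPM in KO, with no overlap but no call (-0.37, adjusted p = 0.233).

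Ebp values were 49.5, 53.9, 56.8 and 51.4 CPM in untreated WT and 37.2, 42.6, 38.2 and 42.4 CPM in untreated KO. All 4 KO libraries lay below all 4 WT libraries, and the log2 difference was -0.40 (SE 0.10, adjusted p = 0.0224). The call was lost without untreated WT library 2 (adjusted p = 0.0851) or 3 (0.082) or untreated KO library 1 (0.0705) or 3 (0.0642). After LPS the values were 40.2, 40.1, 42.6 and 38.6 CPM in WT and 32.4, 31.4, 33.02 and 35.2 CPM in KO, again apart, at -0.29 (adjusted p = 0.108).

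Npc1 was the member called higher in KO. Its values were 204, 197, 209 and 224 CPM in untreated WT and 287, 314, 273 and 272 CPM in untreated KO, without overlap, and the log2 difference was 0.46 (SE 0.13, adjusted p = 0.0377). Leaving out any of the 4 untreated KO libraries, or WT library 1, 2 or 3, ended the call, with adjusted p-values between 0.0577 and 0.129. After LPS the values were 155, 134, 125 and 163 CPM in WT and 174, 190.1, 174 and 158 CPM in KO, at 0.27 (adjusted p = 0.248). Among the further lists, Abca1, the cholesterol efflux pump, was called higher in untreated KO (0.89, adjusted p = 0.0479), as were Erlin2 (0.27, adjusted p = 0.042) and Zmpste24 (0.37, adjusted p = 0.0453), and no gene of those lists was called after LPS. Each of these 3 calls was lost in at least 7 of the 8 fits that left out 1 untreated WT or KO library. Summed endothelial markers moved with the untreated KO group, from 24.4 to 29.7 CPM in WT to 32.0 to 52.6 CPM in KO. Vwf carried nearly all of that sum, while Tek and Emcn were at 0 in all 4 untreated KO libraries and Cdh5 was at most 0.346 CPM. Their part in these differences was not tested.

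Between dCIS and WT, edgeR called 0 of the 28 genes untreated, where 0.0542% of all genes were called, and 0 after LPS, where 0.258% were. At an unadjusted p under 0.05 by edgeR, 1 gene passed untreated and 3 after LPS, against 533 and 1933 of the 14757 tested genes. These counts are not read as a result about the members. DESeq2 also called 0 at each treatment, and so did edgeR after LPS without dCIS LPS libraries 3 and 4. The gene untreated was Idi1, at -0.52 (adjusted p = 1), with values of 13.5, 18.5, 8.92 and 23.6 CPM in dCIS against 21.1, 21.7, 23.2 and 26.4 CPM in WT. The other 3 were Fdps (-0.47, adjusted p = 0.223), Pmvk (-0.38, adjusted p = 0.362) and Fdft1 (-0.34, adjusted p = 0.369), each lower in all 4 dCIS libraries after LPS. Of the 28 log2 differences, 24 were below 0 untreated and 21 after LPS, with medians of -0.17 and -0.16 against -0.001 and -0.005 for all genes. These signs are not independent of each other, since the enzymes are high or low in the same libraries. Among the further lists, Nr1h3, which encodes the oxysterol receptor LXR alpha, was higher in dCIS than in WT after LPS (1.25, SE 0.20, adjusted p = 0.00281), at 143 ± 29.7 against 60.3 ± 8.46 CPM (SD, n = 4). Without dCIS LPS libraries 3 and 4 the difference was 1.46 (adjusted p = 0.00441). Untreated, Nr1h3 stood at 63.5 ± 18.7 CPM in dCIS and 31.7 ± 6.37 CPM in WT, without overlap, at 1.00 (adjusted p = 0.0519).

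KO and dCIS were also compared directly. Untreated, 6 of the 28 genes were called, 3 higher and 3 lower in KO, against 21.3% of all genes, a share close to that background. Ggps1 (-0.66, adjusted p = 0.00299) and Ebp (-0.52, adjusted p = 0.00186) were lower in all 4 KO libraries and Npc1 (0.54, adjusted p = 0.00729) was higher in all 4, as against WT, and those 2 comparisons share the KO libraries. Srebf2 was higher in all 4 KO libraries, by 0.47 (SE 0.15, adjusted p = 0.0254). Its call was lost without untreated dCIS library 1 or 3 or untreated KO library 1 or 4, with adjusted p-values of 0.0598, 0.104, 0.0568 and 0.0748, and with only the groups compared (adjusted p = 0.0518). Hsd17b7 values were 47.4, 28.5, 40.6 and 54.8 CPM in KO and 25.2, 25.7, 16.01 and 34.8 CPM in dCIS. They overlapped through KO library 2 and dCIS library 4, and the log2 difference was 0.75 (SE 0.23, adjusted p = 0.0218), with no call left without dCIS library 1 or 3 or KO library 1 or 4 (adjusted p = 0.0508, 0.0908, 0.0573 and 0.0799) or with only the groups compared (0.0612). Npc2 was lower in KO (-0.37, adjusted p = 0.0296), a call lost without dCIS library 3 (adjusted p = 0.194) or KO library 1 (0.0997) or 3 (0.0757), with only the groups compared (0.0783), and with a block shared by KO and dCIS in that fit (0.0512).

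After LPS Ggps1 was the member called between KO and dCIS, at -0.79 (SE 0.14, adjusted p = 0.00213), where 2.18% of all genes were called, and it was lower in all 4 KO libraries. With only the groups compared in the fit it was -0.85 (adjusted p = 0.0614). Same-numbered KO and dCIS libraries deviated together untreated, while after LPS their values do not settle whether they are paired. With the replicate block over all groups the untreated count was 10 and the count after LPS 2, the latter with 1 gene higher and 1 lower. With a block shared by KO and dCIS in a fit of these groups alone, a choice made after seeing the data, the counts were 9 and 2. The share of all genes called in these fits is not given here, so the counts are not read as a result about the members.

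The LPS response itself was compared between genotypes. For KO against WT edgeR called 0 of the 28 genes, where 0.0203% of all genes were called, and for dCIS against WT 0, where 0% were. At an unadjusted p under 0.05 by edgeR the counts were 0 and 0, against 258 and 1159 of the 14757 tested genes. DESeq2 also called 0 in both, as did edgeR for dCIS without its LPS libraries 3 and 4. The differences of the log2 response ranged from -0.25 to 0.24 for KO and from -0.27 to 0.41 for dCIS. For Dhcr7 the 95% interval of the difference was -0.91 to 0.41 for KO and -0.55 to 0.76 for dCIS. For Ggps1 it was -0.38 to 0.38 and -0.26 to 0.53, and for Mvd, the member with the largest difference in dCIS, -0.18 to 0.99. These intervals come from the fit without a replicate block. With 4 libraries a group, differences of any size inside these intervals remain compatible with the data.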

How the data were processed

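Poly(A) RNA of 24 BMDM libraries was read for 60 nucleotides in paired-end mode, from 200 ng of total RNA, per the labels' protocols. The authors deposited 1 table of whole-number counts per gene ID. STAR, edgeR and the build mm39 are named in the submitters' processing notes. Their versions, the counting program, its strand setting and the annotation are not given in the sources used. A symbol was found for 51948 of the 56941 IDs.

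A quasi-likelihood model in edgeR 4.0.16 (R 4.3.3) was fitted to the 24 libraries together, with TMM scaling and a mean per group, over the 14757 genes past the edgeR filter (minimum count 10, minimum total 15). Adjusted p-values are 2-sided Benjamini-Hochberg values over these genes, and a gene was called under 0.05. Each SE was taken from the F statistic and intervals are at 95%. The fit was tested on simulated counts.

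The members and the further lists were chosen with earlier results of these data known. A further list is not reported here. Values of every library are given for members called after LPS in WT with a log2 change of at least 1. The same holds for the 4 control genes, for Ggps1, called between genotypes, and for Hmgcs1, chosen after seeing the data. Pmvk, Ebp, Npc1 and Hsd17b7, called between genotypes, and Idi1, chosen after seeing the data, have them for some groups only. Of each further list, up to 4 genes called with the smallest p after LPS in WT, and those called between genotypes, may be named; Srebf1 and Mbtps1 were named after their values were seen.

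Alternatives were RLE size factors, library totals, no filter, at least 1 CPM in 4 libraries, a replicate block, only the groups compared, DESeq2 1.42.0 and each library left out. Library totals, the dCIS LPS group without libraries 3 and 4, and a block shared by KO and dCIS were chosen after seeing the data.

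Same-numbered libraries deviated together from their group means within WT (r of 0.277 to 0.365 over 9181 genes) and KO (0.334 to 0.412), so their numbers were taken to pair them. The main fit, with its SEs and intervals, does not use this pairing, which enters only through the replicate block. In dCIS the range was 0.0999 to 0.575, and the block is given there too. Same-numbered KO and dCIS libraries also deviated together untreated (0.2 to 0.474), unlike WT with KO (-0.0874 to 0.369) or dCIS (-0.251 to 0.31). After LPS the ranges were 0.111 to 0.29 for KO with dCIS, 0.044 to 0.406 for WT with dCIS and -0.056 to 0.239 for WT with KO. The LPS values therefore do not settle whether KO and dCIS are paired. A chi-square test found no library deposited in duplicate.

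Promoter windows came from RefSeq (GRCm38.p6), not the build of the counts. For 19 of the 23 genes the window's end was found near the start of a GENCODE M21 transcript on the same strand.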

Additional observations from a re-analysis of the deposited data

Results flagged for a closer look

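In 8 of 174 groups of 4 libraries, 1 library lay far from the other 3, which lay close together; chance alone sets about 5% of groups apart in this way. Cyp51 in dCIS after LPS stood at 84.07 CPM in library 3 and between 136 and 139 CPM in the others. Fdft1 in the same group stood at 63.79 CPM in library 3 and between 77.8 and 79.2 CPM in the others. In WT after LPS, library 3 had Insig1 at 94.24 CPM, against 109 to 112 CPM, and Npc2 at 1990 CPM, against 1715 to 1752 CPM. Untreated dCIS had Lbr at 25.14 CPM in library 3, against 28.2 to 28.8 CPM, and Tm7sf2 at 14.55 CPM in library 4, against 10.9 to 11.5 CPM. Msmo1 in untreated WT stood at 201 CPM in library 1, against 224 to 228 CPM. Nsdhl in untreated KO stood at 50.84 CPM in library 4, against 38.0 to 39.9 CPM.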

How the results depend on the processing

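Over 1055 pairs of a called gene value and an alternative, 983 kept direction and call, 67 lost the call and 5 changed sign. All 5 came with library totals: Ggps1 in WT (-0.37), KO (-0.38) and dCIS (-0.19), Hmgcs1 in KO (-0.33) and Srebf2 in dCIS (-0.34). Library totals also gave 27 members called in WT after LPS. Between KO and WT after LPS, a fit of only the groups compared called 3 members, and between dCIS and WT after LPS, a fit without the filter called 1. Between KO and dCIS untreated, the count was 10 without the filter, 10 with the replicate block over all groups and 3 with only the groups compared; after LPS it was 3, 2 and 0, and 2 with the block shared by KO and dCIS and 2 with DESeq2. With 1 library left out, counts ranged from 1 to 4 between KO and WT untreated, from 3 to 9 between KO and dCIS untreated and from 1 to 3 after LPS. In the latter, dropping dCIS LPS library 2 gave 3. Untreated, dropping KO library 1 or dCIS library 3 gave 3 and dropping dCIS library 4 gave 9. The replicate block within genotype gave 21 members called after LPS in WT, 20 in KO and 22 in dCIS, and changed no call of the report beyond those given there. Apart from library totals, counts under the alternatives are given without the share of all genes called in the same fit. All 28 members passed the filter, and 4 libraries a group limit the size of difference that can be called. Members that overlap another gene cannot be separated from it here.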
